A study of Mus musculus with 3 samples.

Results

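The 5 muscarinic acetylcholine receptor genes of the mouse, Chrm1 to Chrm5, were taken by symbol from the gene counts of ribosome-bound RNA of the cortex-amygdala transition zone. All 5 were listed among the 32531 genes counted. The RNA came from 3 libraries of 1 group, immunopurified with antibodies to EGFP from untreated adult control mice of the transgenic line Lypd1-TRAP OI82, called replicates 1, 2 and 3. In these mice EGFP fused to the ribosomal protein L10a is made in cells that use Lypd1 regulatory DNA, so the RNA is that of the tagged cells plus whatever came down with it. The design names 3 mice. The sources used here do not say whether a library held 1 animal, and every spread and p-value describes these libraries. Neither unpurified tissue nor another group of mice was at hand, and the values are therefore levels, with no enrichment over tissue.

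Muscarinic receptors are G protein-coupled receptors that carry the slow actions of acetylcholine. Chrm1, Chrm3 and Chrm5 encode receptors coupled to Gq proteins, which act through phospholipase C, calcium release and protein kinase C, and which close the KCNQ potassium channels of the M-current. Chrm2 and Chrm4 encode receptors coupled to Gi and Go proteins, which inhibit adenylyl cyclase and open GIRK potassium channels. In the cortex and amygdala these receptors answer fibres from the cholinergic neurons of the basal forebrain.

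The coding sequences of the family are alike but can be told apart base by base, which bears on how reads were assigned to each gene. The stretch shown was chosen as the 36 coding bases of Chrm1 with the fewest mismatches to the other 4 genes. It opens with the codon of the aspartate known to bind acetylcholine, in the third membrane-spanning segment. Sequences are from GENCODE M21 transcripts, 5′ to 3′ on the coding strand, and capitals mark bases that differ from Chrm1.
Chrm1: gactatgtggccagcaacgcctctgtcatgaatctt
Chrm2: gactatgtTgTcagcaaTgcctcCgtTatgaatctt
Chrm3: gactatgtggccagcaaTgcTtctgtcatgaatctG
Chrm4: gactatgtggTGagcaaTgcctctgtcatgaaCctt
Chrm5: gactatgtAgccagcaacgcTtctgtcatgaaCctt
Even here Chrm2 differed from Chrm1 at 5 bases, Chrm4 at 4, and Chrm3 and Chrm5 at 3 each. In GRCm38 the stretches lie at chr19:8678245-8678280 for Chrm1, chr6:36523516-36523551 for Chrm2, chr13:9878525-9878560 for Chrm3, chr2:91927579-91927614 for Chrm4 and chr2:112480407-112480442 for Chrm5. The Chrm3 and Chrm5 stretches are on the minus strand and the others on the plus strand.

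Over whole coding sequences the closest pair was Chrm1 and Chrm5, both Gq coupled, with 73.0% of 1350 aligned bases identical. The Gi-coupled pair, Chrm2 and Chrm4, shared 70.3% of 1357 aligned bases. The least alike were Chrm1 and Chrm2, with 66.0%. The longest run of bases shared without a mismatch by any pair was 29, between Chrm1 and Chrm4, and for the other 9 pairs it was 17 to 23. A read longer than the shared run differs between the genes at 1 base or more.

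**Figure D1:**
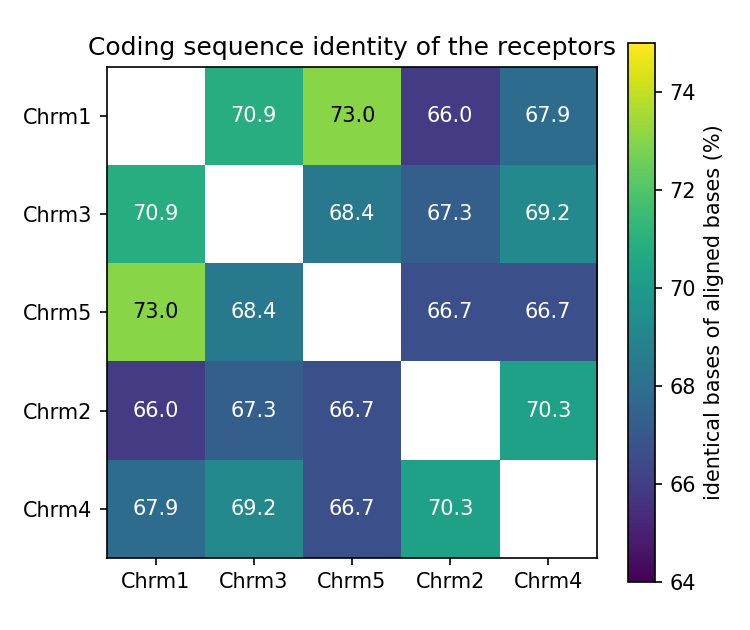
Share of aligned coding bases that are identical, in %, for each pair of the 5 receptor genes, with the Gq-coupled genes first and the Gi-coupled genes last. Values run from 66.0% for Chrm1 with Chrm2 to 73.0% for Chrm1 with Chrm5.

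The libraries differed in depth and make-up in ways that touch the receptor values. Replicates 1, 2 and 3 held 18526251, 24690301 and 8668527 counts assigned to genes. CPM gives counts per 1000000 of these, and the level of 3 counts, up to which a gene without a count may lie, was 0.162, 0.122 and 0.346 CPM. Floors and intervals given here cover counting error only. Replicate 3 was the shallowest, and 45.3% of its reads fell in no gene, against 31.4% and 25.6% in replicates 1 and 2. The nuclear RNA Malat1 took 8.25% of its gene counts, against 3.45% and 1.44%. Replicate 1 stood apart by cholinergic neuron markers, whose 6 genes summed to 94.1 CPM there and to 5.31 and 3.92 CPM in replicates 2 and 3. All 5 pan-neuronal and all 6 glutamatergic markers were detected, that is at 1 CPM or more in every library. So were all 5 GABAergic markers, against 39.3% of all genes counted.

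Chrm1, the main muscarinic receptor of forebrain projection neurons, was the most abundant member of the family. It measured 82.2, 92.1 and 121 CPM in replicates 1, 2 and 3, from 1522, 2273 and 1048 counts. Replicate 3 was the highest, and the exact 95% binomial (Clopper-Pearson) intervals of the 3 libraries did not overlap. Scaled to coding length, its mean was above that of 88.4% of the 15661 protein-coding genes with a count. Chrm1 (ENSMUSG00000032773.9) lies on the plus strand of chromosome 19, from 8663789 to 8683587.

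Chrm3, the other well-measured Gq-coupled receptor, known best from smooth muscle and glands and also made in the forebrain, measured 20.3, 12.2 and 25.8 CPM. Its order over the libraries differed from that of Chrm1, with replicate 2 the lowest. Its mean of 19.4 ± 6.89 CPM (SD, n = 3) was, per coding kb, above 51.9% of protein-coding genes. Chrm3 (ENSMUSG00000046159.16) spans 9875486 to 10360847 on the minus strand of chromosome 13.

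Chrm5, known in the brain mainly from midbrain dopamine neurons, was low, with 2.16, 1.499 and 6.34 CPM from 40, 37 and 55 counts. Replicates 1 and 2 had overlapping intervals, of 1.54 to 2.94 and 1.06 to 2.07 CPM, and replicate 3 lay above both, at 4.78 to 8.26 CPM. Its mean of 3.33 ± 2.63 CPM fell to 1.83 without replicate 3. Chrm5 (ENSMUSG00000074939.3) lies on the minus strand of chromosome 2, from 112479171 to 112480769. RefSeq gives it a longer span, part of which Aven overlaps on the opposite strand. Aven measured 2.16, 0.203 and 2.08 CPM, with replicate 2 the lowest, as for Chrm5, and replicate 1 the highest. The strand setting of the counting is not given in the sources used here, so how reads in such shared bases were assigned is not known. Reads that HTSeq classed as ambiguous were left out of all counts.

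Chrm4, the Gi-coupled receptor best known from striatal projection neurons, measured 5.40, 7.01 and 14.9 CPM. Replicate 3 was again the highest, with an interval of 12.4 to 17.7 CPM that lay clear of the other libraries. The mean was 9.10 ± 5.08 CPM, above 41.6% of protein-coding genes per coding kb. Chrm4 (ENSMUSG00000040495.4) lies on the plus strand of chromosome 2, from 91927249 to 91928688. In RefSeq its end overlaps that of Mdk on the opposite strand, which measured 0.864, 1.17 and 3.92 CPM, the same order over the libraries as Chrm4.

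Chrm2, the Gi-coupled receptor of the heart and of cholinergic nerve endings, was the least abundant. It measured 1.08, 0.770 and 4.15 CPM, from 20, 19 and 36 counts. Replicates 1 and 2 did not differ beyond counting error, with intervals of 0.659 to 1.67 and 0.463 to 1.20 CPM, while that of replicate 3 was 2.91 to 5.75 CPM. The mean of 2.001 ± 1.87 CPM fell to 0.925 without replicate 3. Chrm2 (ENSMUSG00000045613.9) lies on the plus strand of chromosome 6, from 36388084 to 36528414. The antisense transcript 9330158H04Rik overlaps its start and measured 5.13, 0.122 and 1.62 CPM. Its lowest library was replicate 2, as for Chrm2, but its highest was replicate 1.

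**Figure D2:**
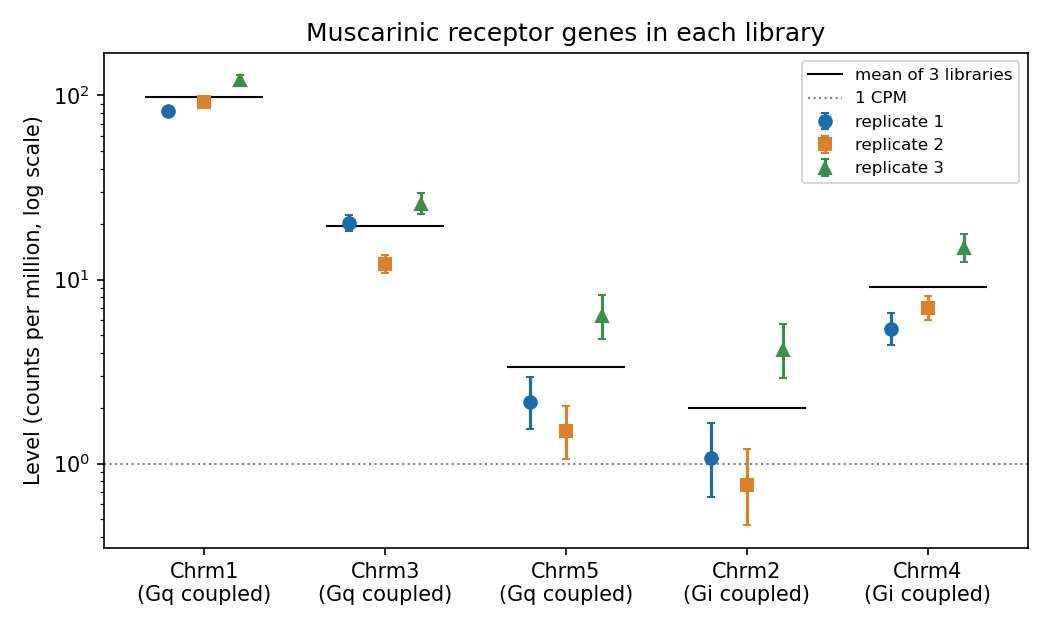
Level of each receptor gene in each library, in CPM on a log scale, with exact 95% binomial intervals as bars, the mean of the 3 libraries as a black line and 1 CPM dotted. Every receptor was highest in replicate 3, and Chrm2 was under 1 CPM in replicate 2.

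By the threshold of 1 CPM in every library 4 of 5 receptors were detected, all but Chrm2, where 39.3% of all listed genes were. Without replicate 2 all 5 were. The low receptors stood above most genes of a set that neurons of the forebrain are not known to use. The 1089 odorant receptor genes, a set chosen after the data were seen, are also coded in short coding sequences. Pooled, they held 0.0257, 0.00619 and 0.0299 CPM per coding kb in replicates 1, 2 and 3. Chrm2 held 0.772, 0.550 and 2.97 on that scale, above 99.4%, 99.6% and 99.8% of the odorant receptor genes. The odorant receptor genes with at least 1 count numbered 22, 21 and 46, so nearly any gene with counts would stand above most of the set. Those at or above Chrm2 numbered 6, 4 and 2. The comparison does not separate RNA of the tagged cells from RNA that came down with it.

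Every receptor was highest in replicate 3, where 45.4% of the 20785 genes with any count were also highest. Of the 15336 genes that averaged at least 1 CPM, those tested below, 39.2% were highest there. Chrm2 reached that average only through replicate 3. Among genes with a mean of 1 to under 10 CPM that share was 50.8%, and at 10 CPM or more it was 32.6%. Replicate 3 over the mean of the other libraries was 1.39 for Chrm1, 1.59 for Chrm3, 2.40 for Chrm4, 3.47 for Chrm5 and 4.49 for Chrm2. The median ratio of all 15336 genes was 1.05 with CPM and 0.963 with TMM scaling, a shift of −0.13 on the log2 scale. With TMM scaling the 5 ratios ran from 1.27 to 4.12, and all 5 receptors were still highest in replicate 3. The higher Malat1 share and share of reads outside genes moved with this pattern, and their part in it was not tested.

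None of these differences passed the test of variation across the whole table. An intercept-only negative binomial fit (edgeR, chi-square goodness of fit, Benjamini-Hochberg over 15336 genes) called 34 genes, or 0.222%, as varying between the libraries. It called 0 of the 5 receptors, with adjusted p from 0.992 to 0.998 in edgeR. At an unadjusted p under 0.05 it also gave 0 of 5 receptors, against 7.09% of genes. The spread that the fit assumes for a gene was estimated from genes of like level in these same libraries. It was wide, with a coefficient of variation of 0.324 for Chrm1 and 1.18 for Chrm2. A receptor that varies as other genes of its level do would not be called. The test therefore cannot decide whether the receptors differ between libraries beyond counting error. The count of 34 fell to 9 without replicate 1, to 4 without replicate 2 and to 24 without replicate 3.

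To put the receptors in order, their levels were scaled to length and compared within each library. Counts per kb of annotated exons put the mean order at Chrm1, Chrm4, Chrm3, Chrm5 and Chrm2. Chrm1 held 12.7, 14.2 and 18.6 CPM per kb of exons in replicates 1, 2 and 3. Chrm4 held 3.75, 4.87 and 10.3, and Chrm3 held 3.25, 1.94 and 4.13. Chrm5 followed with 1.35, 0.937 and 3.97, and Chrm2 with 0.178, 0.127 and 0.686. The order was the same in each of the 3 libraries.

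The annotation limits this order. For Chrm4 and Chrm5 the GENCODE models hold 1440 and 1599 bases, which is the coding sequence alone, while those of Chrm1, Chrm2 and Chrm3 hold 6487, 6053 and 6253 bases with their untranslated parts. Per kb of coding sequence Chrm3 stood above Chrm4, with 11.5, 6.88 and 14.6 against 3.76, 4.88 and 10.4 CPM per coding kb. That length leaves out the untranslated parts of all 5 genes, while the counts may hold reads from them. It too can therefore distort the order. The log2 difference Chrm3 minus Chrm4 was −0.95 ± 0.64 by annotated exons and 0.87 ± 0.64 by coding length. The order of these 2 receptors is therefore not settled by these files. On both scales Chrm1 was the highest, Chrm2 the lowest and Chrm5 the next above it.

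Among neighbours by annotated exons, Chrm1 exceeded Chrm4 by 1.38 ± 0.47 on the log2 scale, or 2.60-fold, and by 3.61 ± 0.47 by coding length. Chrm3 exceeded Chrm5 by 0.78 ± 0.64, but by 0.049 in replicate 3, where they were nearly equal on that scale. By coding length that difference was 2.60 ± 0.64. Chrm2 minus Chrm5 was −2.76 ± 0.21 by annotated exons and −0.65 ± 0.21 by coding length. Each of the 10 pairs had 1 sign in all 3 libraries. For every pair an exact permutation test that flips signs over 3 libraries (two-sided) gave p = 0.25, the smallest it can give, and 0.25 after Benjamini-Hochberg adjustment over the 10 pairs and the class contrast.

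**Figure D3:**
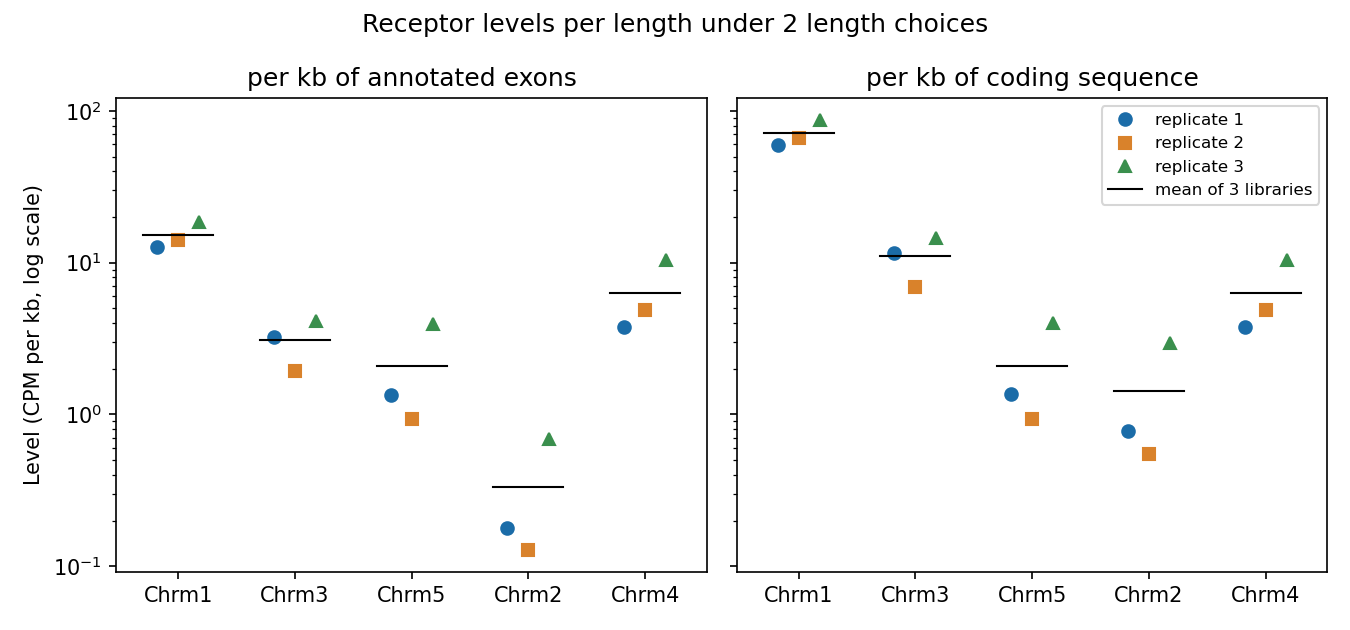
Level of each receptor per kb in each library, on a log scale, scaled to annotated exons on the left and to coding sequence on the right, with the mean of 3 libraries as a black line. Chrm4 is above Chrm3 on the left (6.32 against 3.11 CPM per kb on average) and below it on the right (6.33 against 10.995).

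Set side by side as classes, the Gq-coupled receptors outweighed the Gi-coupled ones in every library. Summed per kb of annotated exons, Chrm1, Chrm3 and Chrm5 held 17.3, 17.1 and 26.7 CPM per kb in replicates 1, 2 and 3, and Chrm2 and Chrm4 held 3.93, 4.99 and 11.02. The log2 ratio was 2.13, 1.77 and 1.28, with a mean of 1.73 ± 0.43 (SD, n = 3), or 3.31-fold. It was positive in 3 of 3 libraries and larger than its spread, and its two-sided exact permutation p was 0.25, adjusted 0.25. By coding length the log2 ratio was 3.58 ± 0.53, against 1.73 by annotated exons. The scales differ because the exon length used for Chrm4 holds no untranslated part.

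The weight of the Gq class lay in Chrm1. Without Chrm1 the log2 ratio by annotated exons was 0.23, −0.79 and −0.44, a mean of −0.34 ± 0.52 that was smaller than its spread (exact sign-flip permutation p = 0.5). By coding length without Chrm1, a setting added after the data were seen, it was 1.49, 0.52 and 0.48. On the Gi side Chrm4 made up 95.5%, 97.5% and 93.8% of the summed level by annotated exons and 82.9%, 89.9% and 77.7% by coding length. Without Chrm4, another setting added later, the ratio by annotated exons was 6.29 ± 0.91.

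**Figure D4:**
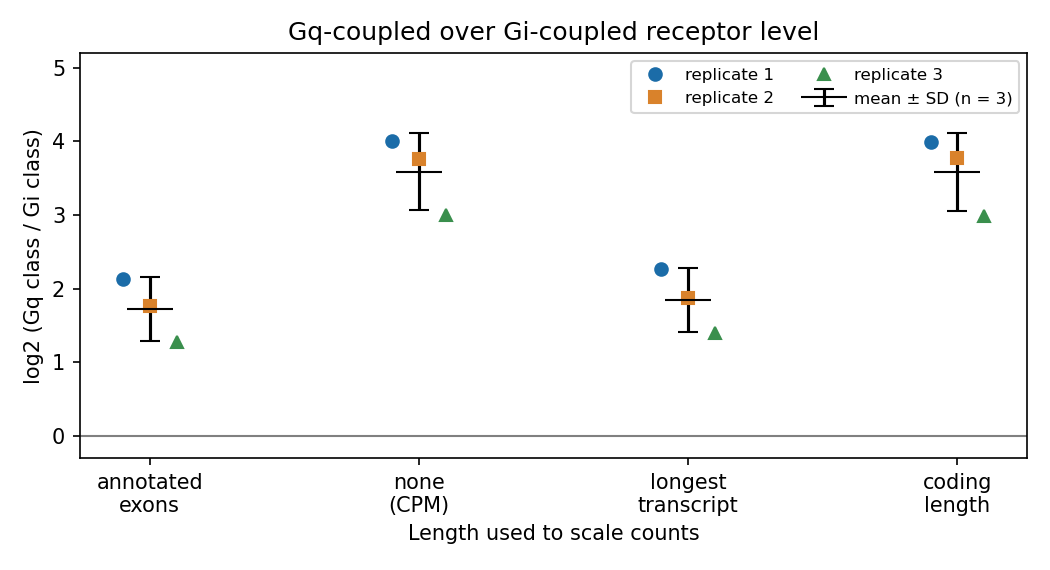
log2 of the summed level of the Gq-coupled receptors over that of the Gi-coupled receptors in each library, under 4 ways of scaling to length, with the mean ± SD over 3 libraries. All values are above 0, and replicate 3 is the lowest under each scaling, at 1.28 by annotated exons and 2.99 by coding length.

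As a share of all counts on the 5 receptors, without length correction, the Gq class took 94.2%, 93.1% and 88.9% in replicates 1, 2 and 3. The exact 95% binomial intervals were 93.1% to 95.1%, 92.1% to 94.1% and 87.2% to 90.5%, so replicate 3 was lower beyond counting error. Chrm1 alone took 74.0%, 81.1% and 70.2%. Chrm4 took 4.86%, 6.17% and 8.65%. These shares compare libraries and not conditions, and they do not depend on the scaling of the libraries.

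The other family of acetylcholine receptors, the nicotinic ion channels, was set beside them after the data were seen. Of 11 neuronal nicotinic subunit genes 3 were detected, against 39.3% of all genes counted. These were Chrna4, Chrnb2 and Chrna7, which form the main nicotinic channels of the forebrain. Summed per coding kb, the muscarinic genes held 76.9, 80.0 and 120 and the nicotinic genes 40.0, 45.5 and 54.2 CPM per kb. The log2 ratio was 0.97 ± 0.16, positive in 3 of 3 libraries, and 0.64 ± 0.30 by annotated exons, and both had a two-sided exact permutation p of 0.25. A nicotinic channel holds 5 subunits and a muscarinic receptor is a single protein, so the sums do not compare numbers of receptors.

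Genes that make, load and clear acetylcholine did not share the highest library of the receptors. Of the 7 listed genes of acetylcholine handling 6 were highest in replicate 1, as were 27.7% of the genes with any count and none of the receptors. The other gene, Colq, had too few counts to be placed. Chat, the enzyme that makes acetylcholine, measured 28.6, 0.608 and 1.62 CPM and was called as varying (edgeR adjusted p = 0.0268). Slc5a7, the choline transporter, measured 15.9, 0.203 and 1.04 CPM (edgeR adjusted p = 0.167). Slc18a3, the vesicular acetylcholine transporter, measured 2.43 CPM in replicate 1 and had no count in the others. Lhx8, a transcription factor of forebrain cholinergic neurons, measured 34.9, 2.96 and 0.346 CPM (edgeR adjusted p = 0.00455). In replicate 1 Chrm1 and Chrm4 were at their lowest. Chrm2, Chrm3 and Chrm5 were lowest in replicate 2, as were Chat and Slc5a7, while Lhx8 was lowest in replicate 3. Chrm2, known as the autoreceptor of such neurons, was at 1.08 CPM in replicate 1 and 0.770 in replicate 2, within counting error. The part of these neurons in the receptor levels was not tested.

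Genes of acetylcholine breakdown were detected. Ache, the esterase that clears acetylcholine at synapses, measured 55.7, 19.0 and 43.3 CPM, and Bche, a related esterase, 8.96, 2.31 and 3.69 CPM. Both were lowest in replicate 2. They were the 2 detected genes of the 7, where 39.3% of all genes counted were detected.

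Partners of the Gq-coupled receptors were detected, with 1 exception. Of the 13 listed genes 12 reached 1 CPM in every library, against 39.3% of all genes counted. Of 12 tested, edgeR called 0 as varying, against 0.222% of all tested genes. At an unadjusted p under 0.05 there were also 0, against 7.09%. With so few genes called in the whole table, 0 in a short list says little. Prkcb, a protein kinase C enzyme, measured 610.5 ± 160 CPM, and Gnaq, the Gq alpha subunit itself, 318 ± 123 CPM. Plcb1, the phospholipase C that Gq activates in forebrain neurons, measured 250.0 ± 39.4 CPM, and Plcb4, a related enzyme, 64.3 ± 6.84 CPM. Of the 13, 4 were highest in replicate 3, as were 45.4% of the genes with any count. Their summed level was 2550, 3138 and 2115 CPM in replicates 1, 2 and 3.

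Of the KCNQ channels 3 of 5 were detected, against 39.3% of all genes counted. Of 4 tested, edgeR called 0 before or after adjustment, against 7.09% and 0.222% of all tested genes. Kcnq5 measured 55.4 ± 1.94 CPM. Kcnq3, a subunit of M-current channels, measured 17.1, 44.8 and 30.1 CPM.

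Partners of the Gi-coupled receptors were detected for 10 of 11 listed genes, against 39.3% of all genes counted. Of 10 tested, edgeR called 0 before or after adjustment, against 7.09% and 0.222% of all tested genes. Gnao1, the Go alpha subunit and among the most abundant signalling genes of neurons, measured 1518 ± 342 CPM and Gnai1, a Gi alpha subunit, 409 ± 111 CPM. The GIRK channel genes Kcnj3, Kcnj6 and Kcnj9 measured 120 ± 16.3, 57.9 ± 15.0 and 57.0 ± 21.3 CPM. Kcnj5, a GIRK subunit best known from the heart, had no count in replicates 1 and 2 and 1.62 CPM in replicate 3.

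All 10 genes that regulate receptor signalling were detected, against 39.3% of all genes counted. Of these 10, edgeR called 0, against 0.222% of all tested genes, with 1 at an unadjusted p under 0.05, against 7.09%. Rgs4, which speeds the return of Gq and Gi proteins to rest, measured 146, 685 and 190 CPM (edgeR adjusted p = 0.102), with replicate 2 high, and it was not called. Arrb1, an arrestin that uncouples receptors, measured 189 ± 46.7 CPM.

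**Figure D5:**
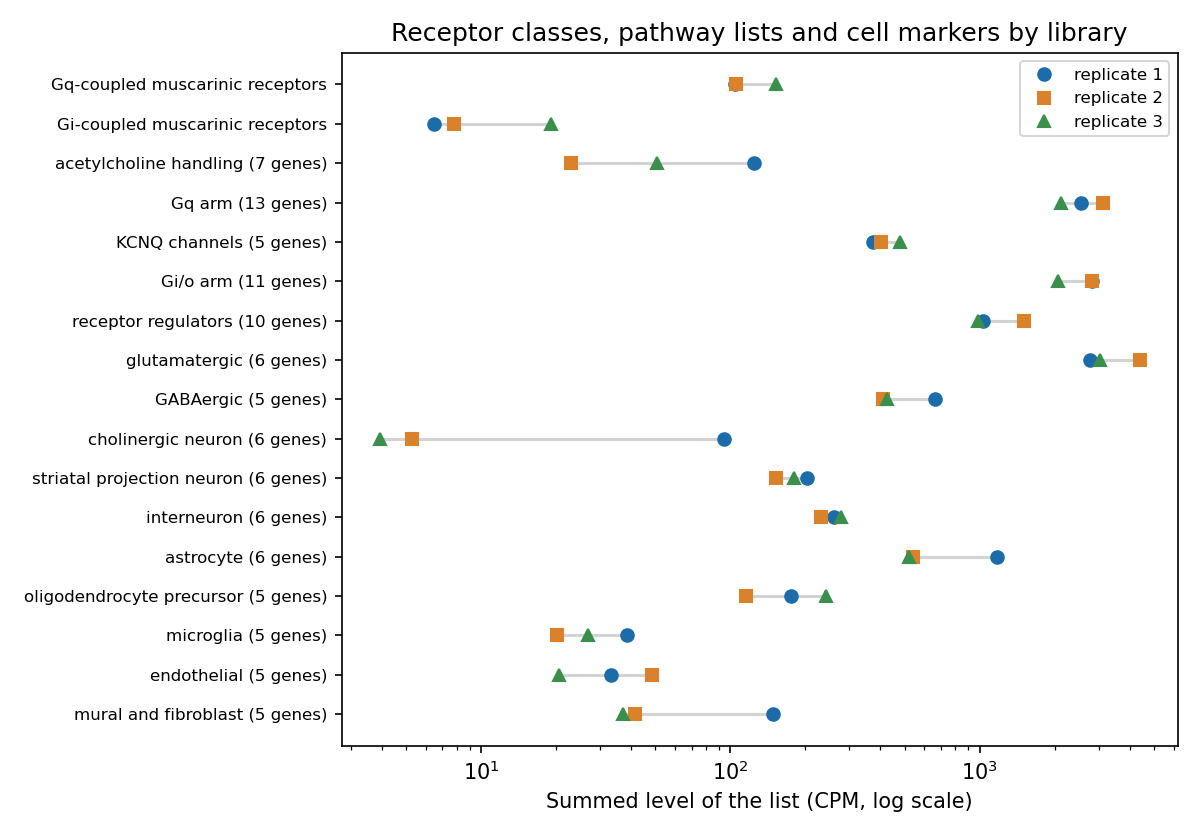
Summed level in CPM, on a log scale, of the 2 receptor classes, the pathway lists and the cell marker lists in each library. Gi-coupled receptors run from 6.48 CPM in replicate 1 to 19.0 in replicate 3, while cholinergic neuron markers run from 3.92 CPM in replicate 3 to 94.1 in replicate 1.

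Markers of other cells that are known to carry muscarinic receptors were present. In the 5 lists given here edgeR called 0 markers as varying, against 0.222% of all tested genes. With so few called in the whole table, 0 in short lists says little. At an unadjusted p under 0.05 were 2 of 5 tested striatal, 1 of 6 astrocyte and 3 of 5 mural or fibroblast markers. Of all tested genes 7.09% were. In bulk RNA, fewer cells of a type and less RNA per cell cannot be told apart. The 6 markers of striatal projection neurons, which are rich in Chrm4, summed to 204, 153 and 180 CPM, with 5 detected and Adora2a at or near 0. Drd1, the dopamine receptor of the striatal cells that carry most Chrm4, was highest in replicate 3, with 21.6, 12.6 and 40.8 CPM (edgeR adjusted p = 0.911). The 5 markers of oligodendrocyte precursors, which carry Chrm1 and Chrm3, summed to 175, 116 and 243 CPM. Of the 5, 4 were highest in replicate 3, as were 39.2% of all tested genes. The other, Olig2, was highest in replicate 1, with 31.3, 11.1 and 16.8 CPM. Astrocyte markers summed to 1176, 542 and 522 CPM and mural and fibroblast markers to 149, 41.6 and 37.1 CPM, both highest in replicate 1. Interneuron markers ranged from 230 to 279 CPM in sum, with Pvalb at 0 in replicate 3 and under 1 CPM in the others. The part of these cells in the receptor levels was not tested.

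Within the 108 listed genes, Arrb2 was among the 2 nearest to Chrm1 in pattern over the 3 libraries, with a root mean square difference of 0.096 on the centred log2(CPM + 1) scale. For Chrm3 the nearest was P2ry12, at 0.039, and for Chrm4 it was Plcb3, at 0.15. For Chrm2 and Chrm5 it was Kcnj5, at 0.097 and 0.14, a gene without a count in replicates 1 and 2. These genes were picked as the nearest of 108 over only 3 points, and no link was tested. Of 15335 other genes, 384, or 2.50%, were as near to Chrm1 as Arrb2 was. For Chrm3, 39, or 0.254%, were as near as P2ry12.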

How the data were processed

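For each library the authors deposited raw read counts by gene, as whole numbers. Per the submitters' processing notes, the tools were STAR 2.0.0e and HTSeq and the genome build was mm10. The gene annotation, strand setting and library kit are not given in the sources used here. The 5 HTSeq summary classes and a row named unknown, which held 0 counts, stayed out of library sizes and tests. The receptors and lists were chosen with earlier results of these data known.

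CPM and counts per kb were computed from the deposited counts, with 0.5 counts added before a log2 ratio between genes. Exon and coding lengths and coordinates come from GENCODE M21 (GRCm38, the assembly mm10 names), in which all 5 receptors were found. Variation was fitted with edgeR 4.0.16 in R 4.3.3 (TMM, trended dispersion, 2 residual degrees of freedom, genes averaging at least 1 CPM, threshold 0.05). It was tried on simulated data only with planted changes larger than the range of any receptor between libraries. Its power for changes as small as theirs is not known. With 1 group there is no contrast for edgeR's quasi-likelihood test or for DESeq2, whose version 1.42.0 gave size factors. The edgeR p-values measure spread between these libraries beyond that fitted from them. Differences between genes were tested with exact sign-flip permutation tests, whose p is 0.25 whenever all 3 libraries share a sign. Coding sequences were aligned pairwise with Biopython 1.88. Other steps used Python 3.11.15, pandas 2.3.3, numpy 2.4.6, SciPy 1.17.1 and matplotlib 3.10.9.

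The 5 pathway lists and 12 marker lists held 111 entries, all matched by symbol. Genes were named by rule: from each list the 2 most abundant by mean CPM and up to 2 called as varying, the 2 nearest to each receptor in pattern, Chat, Slc18a3 and Slc5a7. Some of these are not reported here or are given only through their list's counts, and genes outside the rule were named after their values were seen. Alternatives were other detection thresholds, scalings, filters, a common dispersion, lengths, added counts, class summaries and leaving out each replicate.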

Additional observations from a re-analysis of the deposited data

How the results depend on the processing

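The direction of 2 contrasts turned with the processing. Chrm3 minus Chrm4 was −0.95 on the log2 scale by annotated exons, 1.16 with no length correction and 0.87 by coding length, because the exon model of Chrm4 holds coding sequence only. Gq minus Gi was −0.34 without Chrm1 and by annotated exons, and 0.83 without Chrm1 by coding length. With all 5 receptors it was positive throughout, at 3.59 with no length correction, 1.85 by the longest transcript, 1.495 with 1 CPM added, 1.81 from the mean of log2 values, and 1.52 to 1.95 with 1 replicate left out. The other 9 pairs had the same sign under every length, with 1 CPM added and with each replicate left out.

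The count of genes called as varying was 34, rose to 783 with a common dispersion, and was 4 to 24 with 1 replicate left out. Under the other filters and scalings it was 34 to 40. No receptor was called in the settings that tested it, with edgeR adjusted p of at least 0.889. At a mean of 5 CPM or more Chrm2 and Chrm5 were not tested, nor was Chrm2 without replicate 3. Receptors detected numbered 4, 5 at 0.5 CPM, 3 at 5 CPM and 4 to 5 with 1 replicate left out. Mean levels moved by less than 1 SD under TMM, DESeq2 size factors and totals without the 3 most abundant genes (Rn45s, Malat1, Meg3). With 2 libraries the sign-flip test cannot give a p below 0.5. No paired comparison between groups of samples was possible because the samples form 1 group. Differences between genes were taken within each library. Depth limits Chrm2 and Chrm5, which rest on 19 to 55 counts per library.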
